A study of Mus musculus with 6 samples.

Results

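Metal handling in the fracture callus was followed through 10 genes chosen by symbol, of the 52081 gene identifiers that all libraries share: the metallothioneins Mt1, Mt2 and Mt3, the ferritin chains Fth1 and Ftl1, the iron exporter Slc40a1, the zinc and iron importers Slc39a14 and Slc39a8, the transferrin receptor Tfrc, and the heme oxygenase Hmox1. All 10 were present in every library under a single identifier. Calluses of broken femurs were collected 14 days post-fracture (dpf) from mice described as 12-week-old males, and the 3′ ends of mRNA were counted in single cells by unique molecular identifiers (UMIs). There were 3 control and 3 knockout-labelled libraries. The paper's sections differ on the number of mice, so whether a library came from a single mouse or a pool is not known here. The controls carry the genotype label wt, which the paper gives as Piezo1 f/f. The others carry the label Col2CreERT; Piezo3-/-, which the paper gives as Piezo1 Col2a1. Controls and knockout mice alike were given tamoxifen, 75 mg/kg, daily for 5 days beginning on day 5. In the knockout mice it activates a Cre that the Col2a1 promoter of cartilage cells drives and that removes Piezo1, a mechanosensitive channel gene. The questions asked here were in which cell types of the callus each gene was high, how far libraries differed, and whether the levels differed by genotype label.

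Iron enters most cells bound to transferrin through the transferrin receptor, is stored in ferritin, a shell of heavy (Fth1) and light (Ftl1) chains of which the heavy chain oxidizes iron, and leaves through ferroportin, the product of Slc40a1. Macrophages that clear dead red blood cells break down heme with heme oxygenase and return the iron to the circulation, whereas erythroid precursors and bone-resorbing osteoclasts, which are rich in mitochondria, take iron up. Slc39a14 and Slc39a8 (ZIP14 and ZIP8) carry zinc, iron and manganese into the cell. Metallothioneins are small cysteine-rich proteins that bind zinc, copper and cadmium; Mt1 and Mt2 are widely inducible by zinc and by glucocorticoids through the factor MTF1 and the glucocorticoid receptor, and Mt3 is best known from the brain.

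The mRNAs of the iron genes carry a stem-loop, the iron-responsive element, to which the iron regulatory proteins bind when iron is scarce, blocking translation when it lies before the coding sequence and protecting the mRNA when it lies behind it. The sites are shown because the UMI counts measure mRNA only and cannot see the first of these effects. A search of the GENCODE M21 transcripts (GRCm38) for the loop CAGTGN, with 5 paired bases on either side (G-T pairs allowed) and an unpaired C before them, found a site in the 5′ untranslated region (UTR) of Fth1 (chr19:9982732-9982760, plus strand), Ftl1 (chr7:45459779-45459807, minus strand) and Slc40a1 (chr1:45925465-45925493, minus strand), and 4 sites in the 3′ UTR of Tfrc (chr16:32631219-32631247, chr16:32631598-32631626, chr16:32631663-32631691 and chr16:32631710-32631738, plus strand). The loop is in capitals.
Fth1: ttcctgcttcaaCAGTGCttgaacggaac
Ftl1: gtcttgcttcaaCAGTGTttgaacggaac
Slc40a1: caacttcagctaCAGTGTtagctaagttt
Tfrc site 1: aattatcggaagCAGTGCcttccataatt
Tfrc site 2: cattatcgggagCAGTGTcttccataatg
Tfrc site 3: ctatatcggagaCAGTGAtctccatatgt
Tfrc site 4: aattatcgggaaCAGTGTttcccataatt
Of all genes, 0.102% held such a site in the 5′ UTR (20 of 19596) and 0.568% in the 3′ UTR (118 of 20775) of their longest coding transcript. The other 6 genes held none.

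The core of the metal response element to which MTF1 binds was searched as TGCACNC and TGCGCNC on both strands of the RefSeq promoters (GRCm38.p6, 250 bases before to 50 after each start site). The levels of Mt1 and Mt2 correlated over the 16 named classes (Pearson r = 0.717), although each was closer to other genes. Their promoters (Mt1 chr8:94178839-94179118 and Mt2 chr8:94172368-94172647), both on the plus strand, are therefore shown to 30 bases past the start site, with the matches in capitals.
Mt1: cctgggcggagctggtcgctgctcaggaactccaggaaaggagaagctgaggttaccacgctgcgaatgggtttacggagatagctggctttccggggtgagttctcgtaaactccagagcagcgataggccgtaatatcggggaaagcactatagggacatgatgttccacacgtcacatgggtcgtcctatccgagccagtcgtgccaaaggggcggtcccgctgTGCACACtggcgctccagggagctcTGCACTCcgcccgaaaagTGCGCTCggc
Mt2: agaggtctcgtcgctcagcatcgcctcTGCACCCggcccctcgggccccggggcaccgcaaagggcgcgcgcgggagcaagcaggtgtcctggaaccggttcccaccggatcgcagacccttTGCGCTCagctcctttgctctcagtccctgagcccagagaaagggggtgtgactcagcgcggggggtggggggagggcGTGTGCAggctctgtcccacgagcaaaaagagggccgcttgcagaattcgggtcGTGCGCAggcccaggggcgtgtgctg
Mt1 held 3 matches and Mt2 held 4, of which 2 lie on the other strand, whereas Mt3, their neighbour on chromosome 8, held 1. Of 32851 promoters, 25.7% held at least 1 match, 1.97% at least 3 and 0.517% at least 4. The first of the Tfrc entries held 2 overlapping matches, the second of the Slc39a8 entries held 1, and Fth1 and Ftl1 held none. A match is a description of the letters and not a site in use.

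The 6 libraries held 46944 barcodes, of which 44698 passed the filters and 41652 remained after removal of 3046 likely doublets, with 57626530 to 103784364 UMIs per library and a median of 2337 to 9227 UMIs per barcode. Clusters were named from marker lists, and 16 classes met the rules for a name ("-like" below). The 5 full-depth stromal clusters that did not are called by their leading genes. Clusters of few UMIs with markers of cartilage or other stromal cells, left unnamed, held 42.2% of the cells of control library 1 and 40.7% of knockout-labelled library 1. They held 1.80% to 8.82% of the cells elsewhere, so replicate 1 of both groups stands apart. Library pairs shared at most 0.38% of the barcodes of the smaller library. Piezo1 did not separate the groups: over all cells it was at 95.5, 48.2 and 45.4 UMIs per 1000000 UMIs (here called CPM) in knockout-labelled libraries 1 to 3 and at 62.3, 56.4 and 59.4 in the controls, so that 2 of the former lay below every control and 1 above. In cartilage cells it was at 136, 59.2 and 47.4 CPM against 66.0, 42.9 and 48.3 in the controls (log2 fold change 0.67 ± 0.38, edgeR, adjusted p = 1.00), which overlapped. The paper checked the knockout by immunofluorescence of Piezo1 protein in calluses, which these mRNA counts do not measure. Xist was at 578 CPM in knockout-labelled library 3 and at most 0.17 in the others, which goes against a male origin of that library. Directions by genotype below are therefore directions between libraries as labelled.

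Levels are given as CPM (out of all UMIs that a class has in a library), as the mean over libraries with at least 10 cells of the class; since 3′ counting gives a transcript at most 1 UMI, they were not divided by length. The strongest patterns were by cell type. Macrophage-like cells were highest for the ferritins and Hmox1, osteoclast-like cells held most Mt3, and erythroid-like and osteoclast-like cells were highest for Tfrc. The means of Slc40a1 and Slc39a14 were highest in cartilage and other stromal cells. The SD of the log2 level between classes was larger than the median SD between libraries for 9 of the genes, by most for Slc40a1 (1.39 against 0.74) and Mt3 (1.53 against 1.03), and smaller for Mt2 (1.18 against 1.40).

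**Figure D1:**
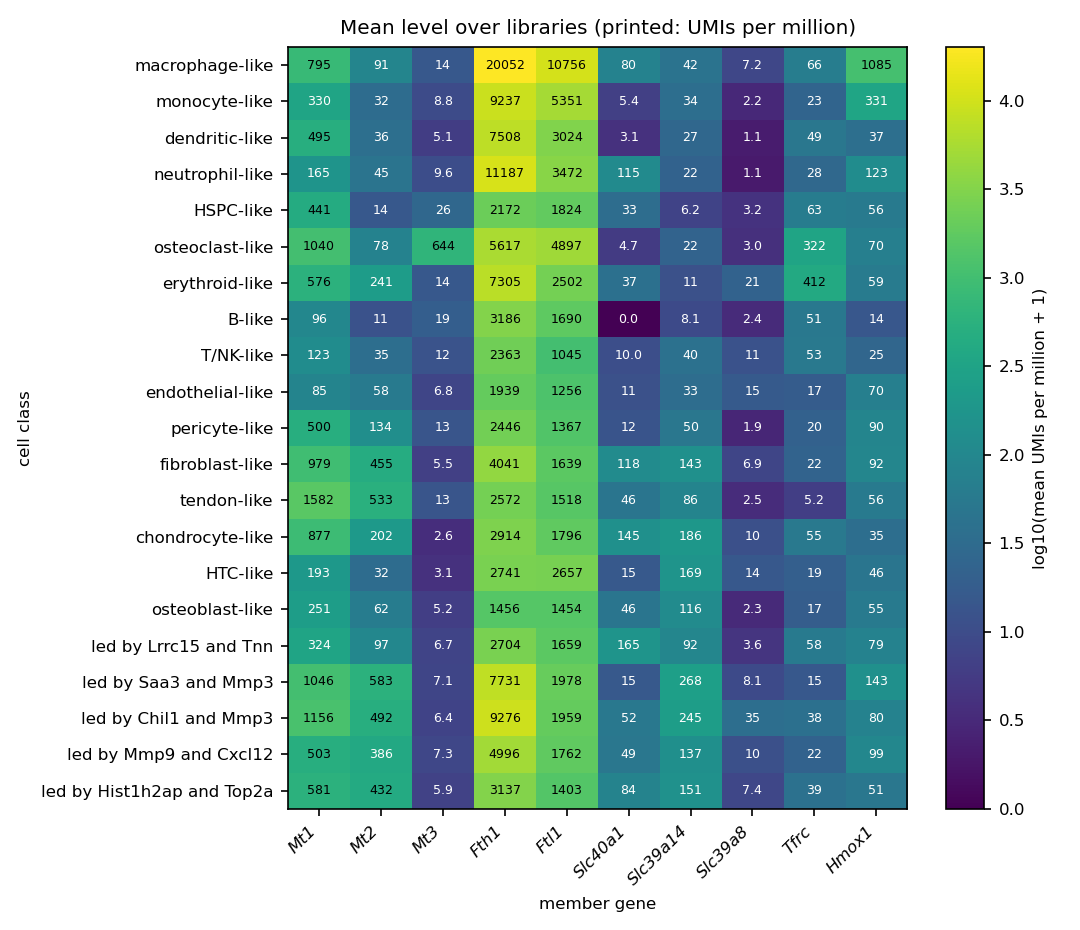
Mean level of each of the 10 genes (columns) in the 16 named classes and 5 clusters called by leading genes (rows); the printed number is the mean CPM over libraries and the colour its log10. Fth1 and Ftl1 peak in macrophage-like cells at 20052 and 10756, and Mt3 peaks at 644 in osteoclast-like cells against at most 25.8 in any other row.

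Pairs of classes were compared within libraries with edgeR's quasi-likelihood test on summed UMIs, with the library as a block. Clustering did not use the 10 genes, but it used the same cells, so these tests describe classes so formed. In osteoclast-like against macrophage-like cells, 3 of the 10 genes were higher and 6 lower past an adjusted p of 0.05, where 53.3% of 13346 genes passed (26.2% higher, 27.0% lower). In macrophage-like against neutrophil-like cells, 7 were higher and 1 lower, where 74.3% of 12707 genes passed (45.1% higher, 29.3% lower). In hypertrophic chondrocyte (HTC)-like against chondrocyte-like cells, 1 was higher and 4 lower, where 32.4% of 14958 genes passed (14.6% higher, 17.8% lower). In osteoblast-like against chondrocyte-like cells, 1 was higher and 7 lower, where 31.7% of 14635 genes passed (14.7% higher, 17.1% lower). In endothelial-like against fibroblast-like cells, 1 was higher and 8 lower, where 62.5% of 15145 genes passed (29.4% higher, 33.1% lower). The median log2 fold change of the 10 genes was -1.22 in osteoblast-like against chondrocyte-like cells, beside -0.0095 over all genes, and -0.092 in HTC-like against chondrocyte-like cells, beside -0.021 over all genes.

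**Figure D2:**
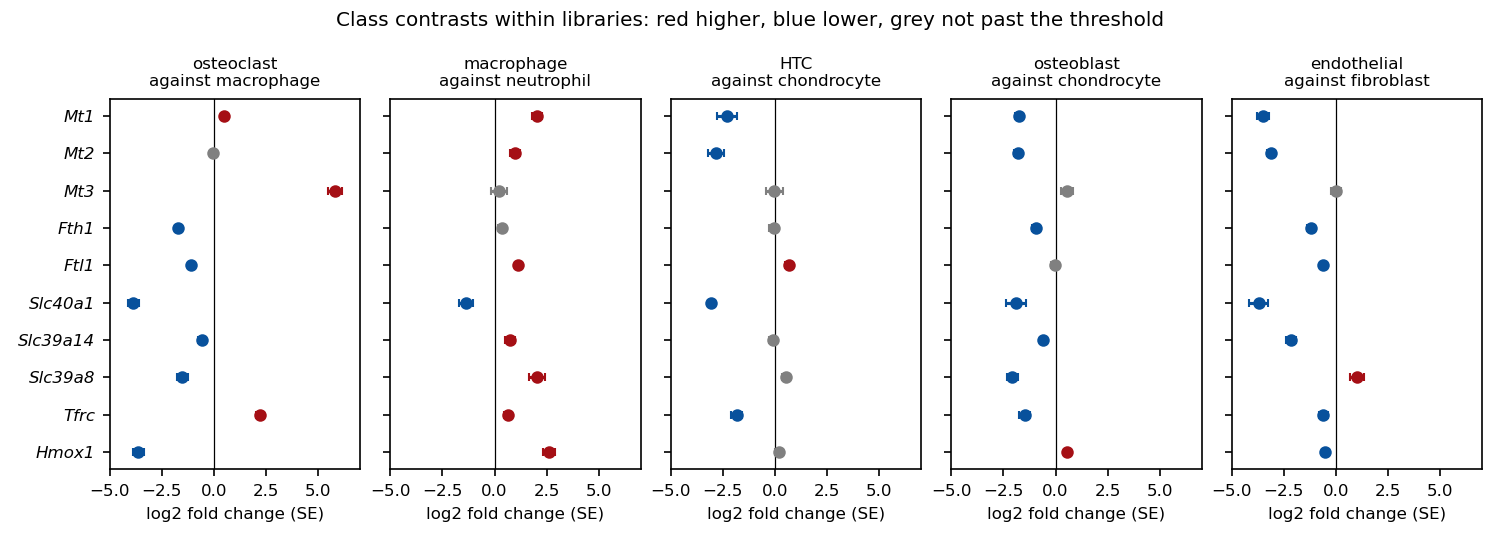
Log2 fold change with its standard error (SE) of each gene in the 5 within-library class comparisons; red and blue points passed an adjusted p of 0.05 and grey points did not. Slc40a1 is lower by 3.87 in osteoclast-like against macrophage-like cells, where Mt3 is higher by 5.81.

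Ferritin mRNA was on average highest in macrophage-like cells. Fth1 reached 20052 ± 7044 CPM (SD, n = 6) in macrophage-like cells (lowest 12178, median 19528, highest 28409), and neutrophil-like cells followed at 11187 ± 3948 (lowest 6256, median 12187, highest 15024). The stromal cluster led by Chil1 and Mmp3 followed with a wide spread, at 2044, 11792 and 27027 CPM of Fth1 in the controls and 9511, 1647 and 3634 in the knockout-labelled libraries, and its ratio of Fth1 to Ftl1 UMIs ran from 0.615 to 14.9. Macrophage-like cells were above neutrophil-like cells in all 6 libraries, but the ranges overlapped and the log2 fold change of 0.34 ± 0.19 (SE) did not pass the test (edgeR, adjusted p = 0.11), though it did with the stricter cell filter (0.56, adjusted p = 0.017) and with no filter on low counts (0.40, adjusted p = 0.013). In that comparison the median log2 fold change of all genes was 0.36 and changed to 0.18 under another scaling (RLE), so Fth1 stood near the median gene. Ftl1 separated the classes more sharply. It was at 10756 ± 1363 CPM in macrophage-like cells (lowest 8689, median 10804, highest 12473), above the highest monocyte-like library (8207), and at 5351 ± 1600 in monocyte-like and 4897 ± 926 in osteoclast-like cells, which overlapped. It was higher in macrophage-like than in neutrophil-like cells (1.13 ± 0.16, adjusted p = 1.11e-05), and both chains were lower in endothelial-like than in fibroblast-like cells (Fth1 -1.20 ± 0.18 and Ftl1 -0.61 ± 0.11, adjusted p = 0.00017 and 0.00085, edgeR), in 6 of 6 libraries each.

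Against macrophage-like cells, osteoclast-like cells had less of both chains, with log2 fold changes of -1.74 ± 0.15 for Fth1 (adjusted p = 1.05e-07) and -1.09 ± 0.10 for Ftl1 (adjusted p = 2.52e-07, edgeR), lower in 6 of 6 libraries. Since Fth1 was the more reduced, the ratio of Fth1 to Ftl1 UMIs was 1.15 ± 0.21 in osteoclast-like cells (0.942 to 1.52 over libraries) and 1.88 ± 0.66 in macrophage-like cells (1.10 to 2.80). Neutrophil-like cells had the highest ratio of the myeloid classes, 3.30 ± 1.28, and HSPC-like cells (hematopoietic stem and progenitor cells) 1.17 ± 0.23. Among skeletal cells the lowest ratio was that of osteoblast-like cells, 1.07 ± 0.36, whose Fth1 was lower than in chondrocyte-like cells by a log2 fold change of -0.95 ± 0.15 (adjusted p = 0.00044, edgeR) while Ftl1 did not differ past the test (-0.015 ± 0.19). HTC-like cells, the enlarged cells that precede bone, showed Ftl1 higher than chondrocyte-like cells in 6 of 6 libraries (log2 fold change 0.65 ± 0.17, adjusted p = 0.0081, edgeR), a call lost without replicate 1 of both groups (0.60, adjusted p = 0.23) and without replicate 3 of both groups (0.60, adjusted p = 0.10). Ferritin pseudogenes can share reads with their parent genes: Ftl1-ps1 took 6734 UMIs beside 1239719 of Ftl1 and Fth-ps2 took 505 beside 2416032 of Fth1.

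Hmox1 opens the heme ring and releases its iron. Macrophage-like cells held 1085 ± 704 CPM (lowest 475, median 789, highest 2325), and monocyte-like cells followed at 331 ± 276. Of a library's Hmox1 UMIs in named classes, clusters called by leading genes and few-UMI stromal clusters, macrophage-like cells held a median of 62.1%. Knockout-labelled library 1 was the highest in macrophage-like cells, and macrophage-like cells were above monocyte-like cells in 6 of 6 libraries although the ranges overlapped. Hmox1 was higher in macrophage-like than in neutrophil-like cells (log2 fold change 2.62 ± 0.29, adjusted p = 5.25e-07) and lower in osteoclast-like than in macrophage-like cells (-3.63 ± 0.27, adjusted p = 2.10e-08, edgeR), in 6 of 6 libraries each. A Hmox1 UMI was found in 74.0% ± 12.5 of macrophage-like cells (SD, n = 6) and 8.41% ± 10.8 of T/NK-like cells, whose median depths were 7148 and 2620 UMIs. After each cell was thinned to 500 UMIs the shares were 24.2% ± 10.7 and 0.888% ± 1.21. Outside the myeloid cells its highest mean was 143 ± 107 CPM in the stromal cluster led by Saa3 and Mmp3. Osteoblast-like cells were higher than chondrocyte-like cells (0.57 ± 0.19, adjusted p = 0.035, edgeR) in 4 of 6 libraries, a call lost under several alternatives, among them DESeq2 (adjusted p = 0.064) and leaving out control library 2 (0.10), control library 3 (0.11) or knockout-labelled library 3 (0.16). HTC-like and chondrocyte-like cells did not differ past the test (0.19 ± 0.18). Endothelial-like cells were lower than fibroblast-like cells (-0.51 ± 0.18, adjusted p = 0.030, edgeR) in 4 of 6 libraries. That call was lost without control library 2 (0.12) or knockout-labelled library 1 (0.093) or 3 (0.057). It was also lost without integration (0.086) and at a clustering resolution of 1.2 (0.085).

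Tfrc, the importer of transferrin-bound iron, was highest in erythroid-like cells, 412 ± 283 CPM over the 4 libraries with enough of them (185 to 820). Osteoclast-like cells followed at 322 ± 145 (lowest 179, median 275, highest 547), and every osteoclast-like library was above every macrophage-like library (66.1 ± 12.4, lowest 44.1, highest 77.2). The log2 fold change of osteoclast-like against macrophage-like cells was 2.21 ± 0.18 (adjusted p = 6.90e-08, edgeR). A Tfrc UMI was found in 75.9% ± 5.6 of osteoclast-like cells and 10.9% ± 0.97 of B-like cells, or 17.0% ± 12.8 and 3.21% ± 2.34 at 500 UMIs per cell (median depths before thinning 15900 and 2048 UMIs). Erythroid-like and osteoclast-like ranges overlapped, and erythroid-like cells were above osteoclast-like cells in 3 of the 4 libraries that had both.

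Slc40a1 encodes the only known exporter of ferrous iron. Osteoclast-like cells held 4.69 ± 1.17 CPM (lowest 3.42, median 4.42, highest 6.18), against 80.5 ± 54.8 in macrophage-like cells (16.2 to 147), a log2 fold change of -3.87 ± 0.26 (adjusted p = 6.64e-09, edgeR) with no overlap. Its level in macrophage-like cells varied between libraries, from 16.2 in control library 3 to 147 in control library 1. Neutrophil-like cells held 115 ± 25.6 CPM, and macrophage-like cells were lower than these by a log2 fold change of -1.38 ± 0.34 (adjusted p = 0.0016, edgeR), although only 4 of 6 libraries showed that direction in CPM. Monocyte-like cells (5.4 CPM) and B-like cells, where it was not found in any of 3 libraries, were at the low end.

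In mean CPM the top of the order for Slc40a1 lay outside the blood cells, with neutrophil-like cells close behind. The stromal cluster led by Lrrc15 and Tnn held 165 ± 121 CPM, chondrocyte-like cells 145 ± 59.0 (lowest 52.9, median 165, highest 198) and fibroblast-like cells 118 ± 59.8, and these neighbours overlapped. HTC-like cells held 15.1 ± 4.27 CPM, below every chondrocyte-like library, with a log2 fold change of -3.06 ± 0.18 (adjusted p = 4.12e-09, edgeR), lower in 6 of 6 libraries. Osteoblast-like cells were also lower than chondrocyte-like cells (-1.91 ± 0.47, adjusted p = 0.0083, edgeR), but without integration of the libraries, which changes which cells make up both classes, the value was 0.015, and without replicate 3 of both groups the adjusted p was 0.07. Endothelial-like cells were lower than fibroblast-like cells (-3.71 ± 0.47, adjusted p = 5.63e-05, edgeR), and at a clustering resolution of 1.2 the value was -0.46 (adjusted p = 0.33).

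**Figure D3:**
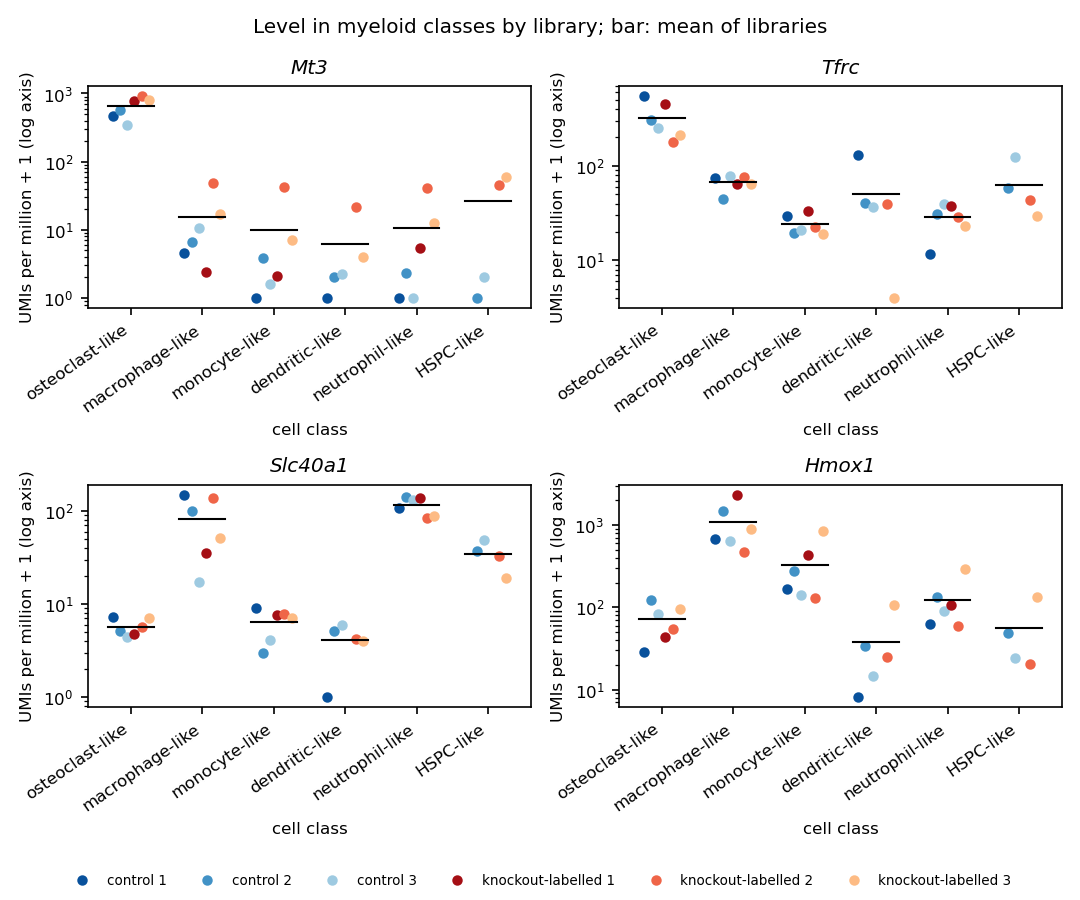
Level of Mt3, Tfrc, Slc40a1 and Hmox1 (CPM + 1, log axis) in 6 myeloid and progenitor classes, 1 point per library with at least 10 cells and a bar at the mean. In osteoclast-like cells the 6 libraries are above those of macrophage-like cells for Mt3 and Tfrc and below them for Slc40a1.

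Tfrc was lower in HTC-like than in chondrocyte-like cells as well, by a log2 fold change of -1.85 ± 0.27 (adjusted p = 4.92e-05), and in osteoblast-like than in chondrocyte-like cells (-1.48 ± 0.27, adjusted p = 0.0011, edgeR), in 5 of 6 libraries each. The exception was knockout-labelled library 2, with only 23 chondrocyte-like cells and 1.86 Tfrc CPM in them. HTC-like cells were also few in control libraries 2 (31 cells) and 3 (20 cells). Chondrocyte-like cells held 54.9 ± 32.2 and HTC-like cells 19.4 ± 10.1 CPM. In the same comparison Fth1 did not differ past the test (-0.071 ± 0.20, adjusted p = 0.82, edgeR). Tfrc was higher in macrophage-like than in neutrophil-like cells (0.62 ± 0.19, adjusted p = 0.0066) and lower in endothelial-like than in fibroblast-like cells (-0.61 ± 0.21, adjusted p = 0.027, edgeR). The former call was lost without control library 1 or 3 or knockout-labelled library 2 or 3 (adjusted p 0.069 to 0.10), and the latter without any library but knockout-labelled library 2 (0.057 to 0.10). At a clustering resolution of 1.2 the latter value was 0.055.

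The zinc and iron importers differed in level and place. Slc39a14 was highest in stroma: 268 ± 220 CPM in the cluster led by Saa3 and Mmp3 (189 ± 121 without knockout-labelled library 1, which held 660), 245 in that led by Chil1 and Mmp3, 186 ± 66.8 in chondrocyte-like cells (lowest 76.3, median 201, highest 256) and 169 ± 39.4 in HTC-like cells. Chondrocyte-like and HTC-like cells overlapped and did not differ past the test (-0.11 ± 0.18), unlike Slc40a1, Mt1 and Mt2, each of which was lower in HTC-like cells. Endothelial-like cells were lower than fibroblast-like cells (-2.17 ± 0.23, adjusted p = 1.63e-05, edgeR) and osteoblast-like cells lower than chondrocyte-like cells (-0.61 ± 0.14, adjusted p = 0.0046, edgeR). The latter call was lost without replicate 1 (adjusted p = 0.053) or replicate 3 (adjusted p = 0.13) of both groups. Slc39a14 was lower in osteoclast-like than in macrophage-like cells (-0.60 ± 0.15, adjusted p = 0.0039, edgeR) and higher in macrophage-like than in neutrophil-like cells (0.75 ± 0.23, adjusted p = 0.0077, edgeR), and the second call was lost without control library 2 (0.071) or 3 (0.089).

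Slc39a8 was low everywhere. Its highest mean was 34.5 ± 38.6 CPM in the cluster led by Chil1 and Mmp3, which knockout-labelled library 1 carried (108 CPM against a median of 21.6). Among named classes erythroid-like cells were highest (21.5 ± 13.6, 4 libraries). Endothelial-like cells (15.2 ± 7.35) and HTC-like cells (14.2 ± 9.60) followed, and the ranges overlapped. Slc39a8 was lower in osteoblast-like than in chondrocyte-like cells (-2.06 ± 0.28, adjusted p = 0.00011), higher in macrophage-like than in neutrophil-like cells (2.03 ± 0.38, adjusted p = 0.00017) and lower in osteoclast-like than in macrophage-like cells (-1.53 ± 0.26, adjusted p = 0.00013, edgeR), in 6 of 6 libraries each. It was the only one of the 10 genes that was higher in endothelial-like than in fibroblast-like cells (0.99 ± 0.33, adjusted p = 0.024, edgeR). That call was lost without control library 1 (adjusted p = 0.058, edgeR), control library 3 (0.056) or knockout-labelled library 3 (0.052). It was also lost at a clustering resolution of 1.2 (0.13) and without replicate 3 of both groups (0.13). In HTC-like against chondrocyte-like cells the Slc39a8 log2 fold change of 0.51 ± 0.19 did not pass (adjusted p = 0.056, edgeR). It did pass under several alternatives, among them without control library 2 (0.010) or knockout-labelled library 3 (0.036). Without replicate 1 of both groups the value was -0.0043.

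Mt3 was highest in osteoclast-like cells, large bone-resorbing cells of the macrophage lineage. It was at 644 ± 219 CPM there (lowest 349, median 676, highest 914), and the next named class, HSPC-like cells, held 25.8 ± 29.9 (n = 4), with no overlap. The unnamed few-UMI stromal clusters held 32.5 ± 37.7 CPM. Osteoclast-like cells made up 1.11% to 6.82% of the cells of a library. They gave 81.1% to 92.5% of its Mt3 UMIs in named classes, clusters called by leading genes and few-UMI stromal clusters. Over all cells they held 10349 of 13444 Mt3 UMIs in knockout-labelled library 2 and 1937 of 2122 in control library 3. Against macrophage-like cells the log2 fold change was 5.81 ± 0.34 (adjusted p = 1.90e-09, edgeR). In the other 4 comparisons, which do not involve osteoclast-like cells, Mt3 did not pass the test (-0.038 to 0.56) and its direction changed between alternatives. A Mt3 UMI was found in 45.6% ± 10.7 of osteoclast-like cells, 8.24% ± 9.76 of macrophage-like cells and 5.19% ± 8.98 of B-like cells. Thinned to 500 UMIs per cell, the shares were 16.3% ± 4.81, 0.804% ± 1.03 and 1.11% ± 1.92.

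Outside osteoclast-like cells Mt3 followed the library. In endothelial-like cells it was at 1.62, 0.805 and 1.83 CPM in control libraries 1 to 3 and at 0, 27.9 and 8.65 in knockout-labelled libraries 1 to 3. The summed level of the 8 osteoclast markers in the same endothelial-like cells was 89.5, 48.5 and 96.8 CPM in the controls and 71.8, 631 and 238 in the knockout-labelled libraries, so the libraries with most Mt3 were those with most osteoclast mRNA. In knockout-labelled library 2 there were 44.2 Mt3 UMIs per 1000 UMIs of osteoclast markers in endothelial-like cells and 39.8 in osteoclast-like cells, and in knockout-labelled library 3 there were 36.4 and 34.95. In fibroblast-like cells of the same libraries the ratios were lower, 23.9 and 8.06. The part of osteoclast mRNA in these Mt3 levels was not tested.

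Mt1 and Mt2 were broad. Mt1 was highest in tendon-like cells (1582 ± 769 CPM, n = 4), followed by the clusters led by Chil1 and Mmp3 (1156 ± 778) and by Saa3 and Mmp3 (1046 ± 804), osteoclast-like cells (1040 ± 131), fibroblast-like cells (979 ± 805), chondrocyte-like cells (877 ± 479) and macrophage-like cells (795 ± 137), all of which overlapped with their neighbours. Without knockout-labelled library 1, tendon-like cells (1356 ± 762, n = 3) and the cluster led by Chil1 and Mmp3 (1096 ± 855) still led, and osteoclast-like cells (1046 ± 145) followed. The spread between libraries was small in osteoclast-like cells (878 to 1221) and large in fibroblast-like cells (262 to 2486). The mean of Mt2 was highest in the cluster led by Saa3 and Mmp3 (583 ± 818, median 219) and in tendon-like cells (533 ± 398, median 466), but knockout-labelled library 1 carried the former with 2190 CPM. Without that library the order changed, with means of 351 ± 199 in tendon-like cells, 338 ± 331 in the cluster led by Chil1 and Mmp3 and 261 ± 247 in that led by Saa3 and Mmp3.

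Along the cartilage lineage both fell together. Chondrocyte-like cells held 877 ± 479 CPM of Mt1 (lowest 94.9, median 910, highest 1377) and HTC-like cells 193 ± 130 (lowest 80.8, median 155, highest 422), with log2 fold changes of HTC-like against chondrocyte-like cells of -2.30 ± 0.47 for Mt1 (adjusted p = 0.0012) and -2.82 ± 0.38 for Mt2 (adjusted p = 2.52e-05, edgeR), lower in 5 of 6 libraries. The exception was again knockout-labelled library 2 with 23 cells of either class. HTC-like cells were also few in control library 2 (31 cells, 3 Mt2 UMIs) and control library 3 (20 cells, 5 Mt2 UMIs). Without replicate 1 of both groups the adjusted p of Mt1 was 0.053. Osteoblast-like cells were lower than chondrocyte-like cells in 6 of 6 libraries, by -1.77 ± 0.19 for Mt1 (adjusted p = 1.77e-05) and -1.81 ± 0.18 for Mt2 (adjusted p = 7.34e-06, edgeR), and without integration the value for Mt2 was -0.88 (adjusted p = 0.078). Endothelial-like cells were the lowest class for Mt1 (85.5 ± 37.3 CPM) and were lower than fibroblast-like cells by -3.49 ± 0.29 for Mt1 and -3.12 ± 0.20 for Mt2 (adjusted p = 2.27e-06 and 3.39e-07, edgeR).

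In osteoclast-like and macrophage-like cells Mt1 and Mt2 parted, and they did so in other myeloid and progenitor classes too. The ratio of Mt1 to Mt2 UMIs was 15.9 ± 5.82 in osteoclast-like cells (5.92 to 23.8 over 6 libraries) and 11.4 ± 5.19 in macrophage-like cells (4.08 to 19.1), but 4.90 ± 2.06 in neutrophil-like cells of 4 libraries (2.62 to 6.89), 3.15 ± 1.21 in fibroblast-like cells (1.44 to 4.43), 2.95 ± 1.84 in endothelial-like cells (0.762 to 5.21) and 4.51 ± 1.51 in chondrocyte-like cells of 5 libraries (2.66 to 6.28). The osteoclast-like and fibroblast-like ranges did not overlap. Other ranges outside the myeloid classes did overlap with the osteoclast-like range. Among them were osteoblast-like cells (5.72 ± 3.81, 2.14 to 12.9) and HTC-like cells of 3 libraries (6.07 ± 4.42, 1.88 to 10.7). The cluster led by Mmp9 and Cxcl12 did so too (5.91 ± 5.42, 0.707 to 16.4). The ratio was also high in HSPC-like cells (27.4 ± 5.61, 3 libraries), dendritic-like cells (17.1 ± 6.6, 2 libraries) and monocyte-like cells (12.9 ± 7.22, 3 libraries). A ratio was taken only where both genes had at least 20 UMIs, which left out libraries with few Mt2 UMIs. In the neutrophil-like cells so left out, Mt1 and Mt2 were at 61.2 and 14.4 CPM in control library 1 and at 72.2 and 5.03 in knockout-labelled library 2. The neutrophil-like ratio is therefore that of the libraries with more Mt2 UMIs. Mt1 was higher in osteoclast-like than in macrophage-like cells in 6 of 6 libraries (0.45 ± 0.099, adjusted p = 0.0012), whereas Mt2 was not past the test (-0.042 ± 0.12, adjusted p = 0.80, edgeR). Both were higher in macrophage-like than in neutrophil-like cells in 6 of 6 libraries (2.02 ± 0.23 and 0.98 ± 0.24, adjusted p = 9.32e-07 and 0.0017, edgeR).

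For each gene, the 3 genes with the most similar pattern were those with the highest Pearson r of log2 mean level over the 16 named classes, which share libraries and cells. Mt3 was nearest to Nudt22 (r = 0.957), 1110008P14Rik (0.956) and the osteoclast receptor Oscar (0.945). Ftl1 was nearest to its pseudogene Ftl1-ps1 (0.942), the receptor Csf1r (0.910) and Cstb (0.908), and Fth1 to Il1rn (0.916), Clec4n (0.884) and Ftl1 (0.877). Mt2 was nearest to Steap3 (0.916), a ferric reductase, ahead of Mt1 (0.717). Hmox1 was nearest to Ninj1 (0.870), Ctsb (0.869) and C3ar1 (0.867), Tfrc to Abcb4 (0.877), Ghitm (0.872) and Car2 (0.865), and Slc39a14 to P4ha1 (0.951), Yipf3 (0.945) and Colec12 (0.942). The values were lower for Slc40a1 (Inhba, 0.741), Slc39a8 (Slc43a3, 0.783) and Mt1 (Oxct1, 0.806). Among the 10 genes, r was 0.756 between Hmox1 and Ftl1 and 0.612 between Tfrc and Mt3.

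Knockout-labelled library 1 stood apart for Mt2 and Slc39a14. Both were highest in this library in all of the 11 named classes and 5 clusters that had 10 cells in every library, Slc39a8 was highest there in 11 classes and Mt1 in 9. In fibroblast-like cells Mt2 was at 178, 379 and 230 CPM in the controls and at 1725, 72.8 and 147 in knockout-labelled libraries 1 to 3. Its ratio to the median of the other 5 libraries was 1.70 to 32.2 over the classes for Mt2 (median 6.99) and 1.30 to 6.2 for Slc39a14 (median 3.11), while for Ftl1 it was 0.553 to 1.23 (median 0.867). Classes of a library share its preparation and are not replicates of each other. Ftl1 and Hmox1 were highest in knockout-labelled library 3 in 14 and 12 classes, and Mt3 in knockout-labelled library 2 in 15.

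**Figure D4:**
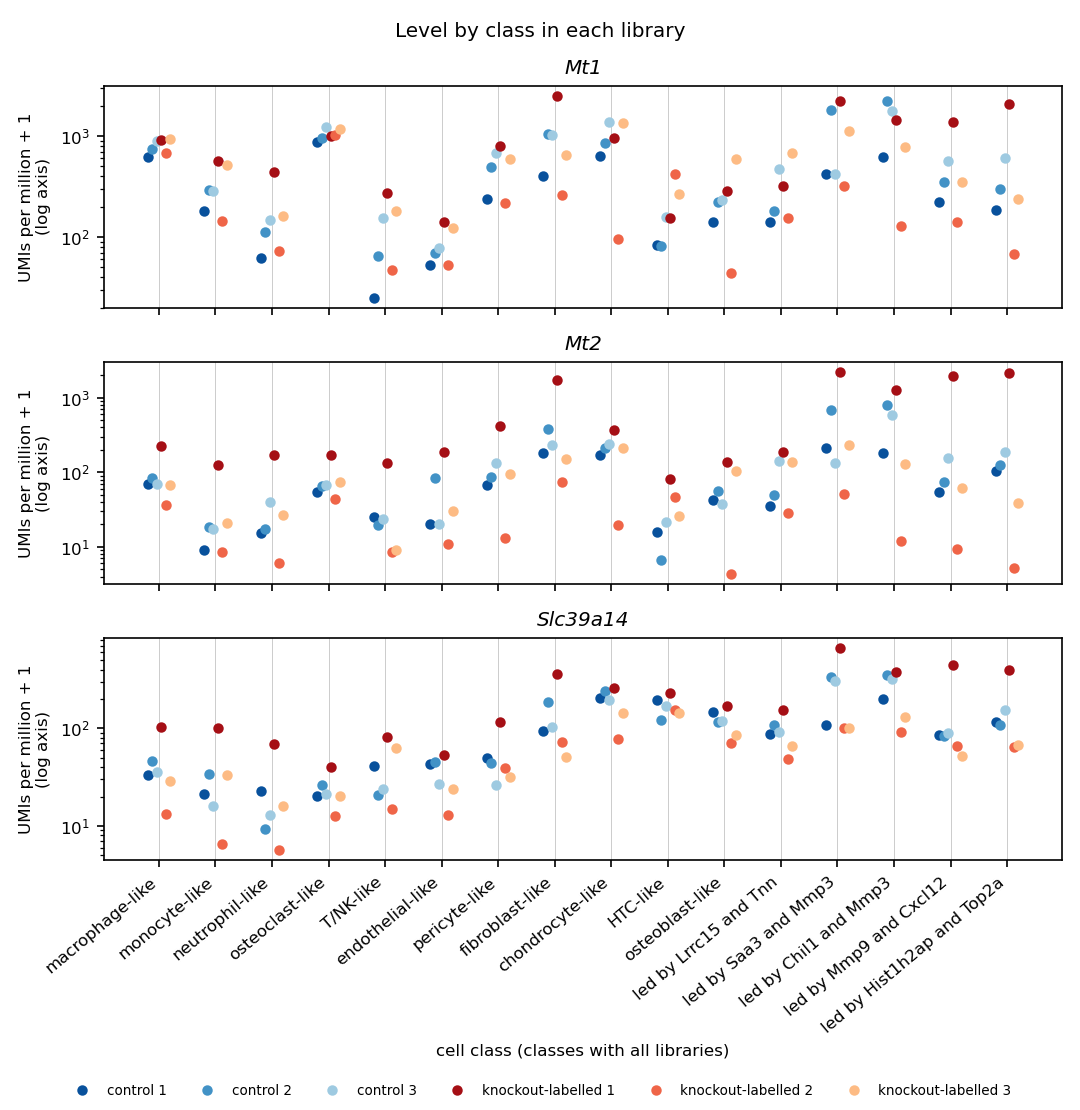
Level of Mt1, Mt2 and Slc39a14 (CPM + 1, log axis) in the 16 classes with all 6 libraries, 1 point per library (blue, control; red and orange, knockout-labelled). Knockout-labelled library 1 is the top point of Mt2 and of Slc39a14 in all 16 classes.

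Whether the 10 genes differed by genotype label was tested with edgeR on the summed UMIs of 3 control and 3 knockout-labelled libraries, in cartilage cells (chondrocyte-like and HTC-like together), where the deletion was directed, and in 11 single classes. In cartilage cells 0 of the 10 genes passed an adjusted p of 0.05, where 0 of 14743 genes (0%) did, with 407 genes at an unadjusted p under 0.05. In the 11 single classes, where 6 to 10 of the genes could be tested, 0 passed either, and 0 genes of any kind did (175 to 780 per class at an unadjusted p under 0.05). DESeq2 called 0 genes in cartilage cells and 0 to 4 in the other classes. In simulated counts for the cartilage comparison, genes drawn at random from those tested were changed by 1, 2 and 3 on the log2 scale. The changes were found in 7.46%, 62.7% and 92.4% of them, so a change of 1 was mostly missed. These rates are averages over such genes and are not those of the 10 genes, whose levels and spread differ.

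In cartilage cells pooled, the groups did not overlap for 1 of the 10 genes, Slc40a1, where 7.35% of all genes tested did not overlap in either direction. Slc40a1 was at 142, 138 and 190 CPM in the controls and at 79.7, 120 and 41.0 in the knockout-labelled libraries (156 ± 28.7 against 80.0 ± 39.3, SD, n = 3 each), a log2 fold change of -0.97 ± 0.36 (edgeR, adjusted p = 1.00). In chondrocyte-like cells alone the groups overlapped, at 187, 144 and 198 against 96.4, 190 and 52.9 CPM (-0.63 ± 0.41, edgeR, adjusted p = 1.00), and they overlapped in HTC-like cells, at 16.7, 20.7 and 12.4 against 13.2, 18.7 and 9.25. HTC-like cells, which hold less Slc40a1, were 24.6%, 4.91% and 3.47% of the cartilage cells of the controls and 19.4%, 50% (23 of 46) and 29.2% of those of the knockout-labelled libraries. The part of this mix in the pooled value was not tested.

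In fibroblast-like cells, where 5.78% of genes did not overlap, Slc40a1 was at 186, 165 and 160 CPM against 71.8, 43.1 and 79.0. The log2 fold change was -1.39 ± 0.28 (edgeR, adjusted p = 1.00). It was past the threshold with DESeq2 (-1.39, adjusted p = 0.024), where 2 of 12898 genes passed. It was also past it in edgeR with no filter on low counts (adjusted p = 0.0057). There 93 of 26167 genes passed, against 0 of 12898 with the filter. Slc40a1 was lower on average in 7 of the 9 single classes tested, which share libraries, with log2 fold changes from -1.39 to 0.72.

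Tfrc in cartilage cells was at 46.6, 84.8 and 83.2 CPM in the controls and at 48.9, 11.0 and 29.8 in the knockout-labelled libraries (-1.12 ± 0.45, edgeR, adjusted p = 1.00). Hmox1 was at 22.2, 32.7 and 18.9 against 31.7, 46.1 and 72.0 (1.11 ± 0.39, edgeR, adjusted p = 1.00). The groups overlapped for both genes in pooled cartilage cells but not in chondrocyte-like cells alone, where 8.01% of genes did not overlap. There Tfrc was at 59.2, 88.2 and 85.4 against 57.4, 1.86 and 37.2 CPM (-1.02 ± 0.58) and Hmox1 at 21.4, 32.7 and 17.2 against 33.1, 35.4 and 70.0 (1.11 ± 0.40, edgeR, adjusted p = 1.00 for both). The values of knockout-labelled library 2 came from only 23 chondrocyte-like cells, and the nearest values of the groups lay close together for both genes. Ftl1 was at 1231, 1090 and 868 CPM against 1149, 5544 and 2177 (1.503 ± 0.55, edgeR, adjusted p = 1.00), and without knockout-labelled library 2, which had 46 cartilage cells, the log2 fold change was 0.78. In that library the summed macrophage markers in cartilage cells stood at 183 CPM, against 57.5 to 126 in the others, with none of the 9 markers at 0 in its chondrocyte-like cells. Their part in the Ftl1 level was not tested. The Ftl1 log2 fold change was positive in 11 of 11 single classes, which share libraries (0.18 to 1.49, all with adjusted p over 0.05 in edgeR). Of the 16 classes with all libraries, Ftl1 was highest in knockout-labelled library 3 in 14 and in knockout-labelled library 2 in 2.

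**Figure D5:**
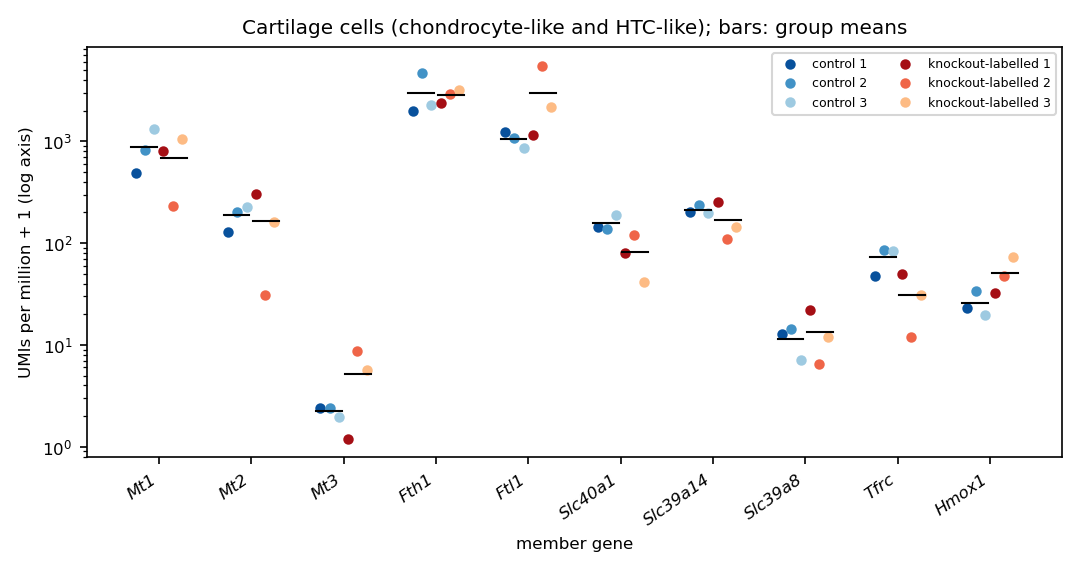
Level of the 10 genes (CPM + 1, log axis) in cartilage cells of each library, with bars at the mean of the 3 control and the 3 knockout-labelled libraries. In these pooled cells the groups overlap for every gene but Slc40a1; 7.35% of all genes tested do not overlap.

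The metallothioneins of cartilage cells did not separate the groups. Mt1 was at 875 ± 420 CPM in controls and 692 ± 419 in knockout-labelled libraries, and Mt2 at 186 ± 51.3 and 166 ± 138 (log2 fold changes -0.24 ± 0.59 and -0.09 ± 0.64, edgeR, adjusted p = 1.00). The remaining log2 fold changes in cartilage cells were -0.031 ± 0.46 for Fth1, -0.29 ± 0.35 for Slc39a14, 0.42 ± 0.43 for Slc39a8 and 1.502 ± 0.95 for Mt3, which was at or under 7.68 CPM in every library. In HTC-like cells alone, where 6.01% of genes did not overlap, Mt2 was low but did not overlap, at 14.7, 5.63 and 20.7 against 80.6, 45.4 and 24.7 CPM (1.91 ± 0.53, edgeR, adjusted p = 0.999), with knockout-labelled library 1 again the highest. In osteoclast-like cells Mt3 was at 464, 565 and 349 CPM in the controls and at 787, 914 and 789 in the knockout-labelled libraries (459 ± 108 against 830 ± 72.8, SD, n = 3 each), which did not overlap, as was so for 8.07% of the genes tested there, and the log2 fold change of 0.94 ± 0.27 missed the adjusted threshold (edgeR, adjusted p = 0.98). With no filter on low counts, edgeR called Mt3 in 6 other classes (2.81 to 4.43). There 44 of 25081 genes were called in osteoblast-like, 93 of 26167 in fibroblast-like and 112 of 27049 in endothelial-like cells. In pericyte-like, monocyte-like and neutrophil-like cells 58, 50 and 23 genes of any kind were called. Under the filter Mt3 was tested only in the endothelial-like cells of these 6 and was not called. Its levels were near the floor, in neutrophil-like cells 0, 1.33 and 0 CPM in the controls against 4.42, 40.2 and 11.5. In fibroblast-like cells they were 1.74, 0.638 and 1.30 against 1.04, 21.3 and 7.07.

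Over the single classes, which share libraries, the log2 fold change was positive in 11 of 11 for Mt2 (0.053 to 1.91), in 10 of 11 for Mt1 (-0.12 to 1.33) and in 4 of 4 for Mt3 (0.94 to 3.33). The knockout-labelled libraries differed among themselves. Of the 16 classes with all libraries, library 1 was highest for Mt2 in 16 and for Mt1 in 9. Knockout-labelled library 2 was lowest of all libraries for Mt2 in 15 and for Mt1 in 10. Mt3 was tested only where it passed the low-count filter, and library 2 was highest for it in 15 of the 16. The highest Mt3 value was that of endothelial-like cells (3.33 ± 1.03, edgeR, adjusted p = 0.78), whose osteoclast markers are given above. The log2 fold change was positive in 9 of 11 for Fth1 (-0.062 to 0.76), 9 of 10 for Hmox1 (-0.15 to 1.31), 7 of 11 for Slc39a14 (-0.39 to 1.24), 4 of 5 for Slc39a8 (-0.024 to 0.97) and 4 of 11 for Tfrc (-1.02 to 0.20).

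A wider list of 75 genes of iron, heme, zinc, copper and NRF2 handling, which excludes the 10, was counted in the same tests. In osteoclast-like against macrophage-like cells, 19 were higher and 24 lower of 66 tested, beside 26.2% and 27.0% of all genes. Those with the largest change in 6 of 6 libraries were the ferric reductase Steap4 (4.08 ± 0.18), the iron carrier transferrin (Trf, -3.69 ± 0.16), Hfe (-3.25 ± 0.14), the phagosomal iron transporter Slc11a1 (-2.97 ± 0.12), Lrp1 (-2.54 ± 0.13) and the cystine transporter Slc7a11 (-2.53 ± 0.25), with adjusted p at most 6.10e-07 (edgeR). In macrophage-like against neutrophil-like cells, 35 were higher and 18 lower of 65, beside 45.1% and 29.3% of all genes. The largest changes were those of the neutrophil granule proteins Ltf (-8.62 ± 0.23) and Lcn2 (-8.39 ± 0.38), which bind iron and siderophores. Zinc genes were 9 higher and 2 lower of 15 in that comparison, beside the same shares of all genes.

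In HTC-like against chondrocyte-like cells, 9 of the list were higher and 19 lower of 69 tested, of them 3 and 8 of the 23 iron genes. Of all genes, 14.6% were higher and 17.8% lower. The reductases Cybrd1 (-3.55 ± 0.27) and Steap3 (-2.69 ± 0.20), which deliver ferrous iron to transporters, had the largest changes (edgeR, adjusted p = 4.21e-08 and 4.72e-08), lower in 6 of 6 libraries as Slc40a1 was. Among zinc genes 1 was higher and 7 lower of 15, including the transporters Slc39a7 (-1.13 ± 0.28) and Slc39a13 (-1.04 ± 0.15). In osteoblast-like against chondrocyte-like cells 10 of the list were higher and 14 lower of 69, beside 14.7% and 17.1% of all genes. Bmp6, an inducer of hepcidin (-3.60 ± 0.37), and the NRF2 target Nqo1 (-3.52 ± 0.29) changed most. In endothelial-like against fibroblast-like cells 17 were higher and 29 lower of 69, beside 29.4% and 33.1% of all genes. The heme-hemopexin receptor Lrp1 changed most there (-5.09 ± 0.24). By genotype label, 0 of the list passed in any class, of 35 to 69 genes tested.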

How the data were processed

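The deposited files hold raw UMI counts per gene and filtered cell barcode, which the authors made with Cell Ranger (6.1.1 for replicate 1 of both groups, 6.1.2 for replicates 2 and 3, per the file headers) on GRCm38 per the labels, with no normalization. Replicate 3 was counted against another gene list (55357 genes against 55450), and only the 52081 identifiers common to all were used (at least 97.8% of each library's UMIs). Members and lists were chosen with earlier results of these data known.

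Cells with at least 500 UMIs, 200 genes and at most 20% mitochondrial UMIs were kept, and cells with the highest Scrublet scores were taken out as doublets, at 0.8% for every 1000 cells of a library (the tool's own threshold called 0 to 471 cells per library). From 2000 variable genes without the members and the metal list, 30 components were integrated with RPCA in Seurat 5.3.0 and clustered with leidenalg 0.10.2 (20 neighbours, resolution 0.8; scanpy 1.11.5, Python 3.11.15). A name needed 3 markers found in at least 25% of cells and 2 times over the median cluster; these limits, and leaving few-UMI stromal clusters unnamed, were set after the data were seen. UMIs were summed per class and library (at least 10 cells) and tested with edgeR 4.0.16 (filterByExpr, TMM, two-sided quasi-likelihood F test, Benjamini-Hochberg adjustment over all genes, R 4.3.3), tested on simulated data. P-values measure the spread between libraries, and intervals cover counting error only where given. The SE of an edgeR log2 fold change was derived from the test, as its absolute value divided by the square root of the F statistic.

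All members are named in the class comparisons and in cartilage cells, and by their range over the other classes by genotype. Of the metal list, counts are given, and up to 6 called genes with the largest change in the same direction in every library. Alternatives were no integration, resolution 1.2, a stricter cell filter (at least 1000 genes, at most 10% mitochondrial UMIs), each library or replicate 3 of both groups left out, mitochondrial and rRNA genes left out, RLE, no low-count filter, DESeq2 1.42.0, and a replicate block; 3 were added after the data were seen: replicate 1 of both groups left out, few-UMI clusters counted as chondrocyte-like, and levels without knockout-labelled library 1. Shares of genes whose groups do not overlap were also added then. RefSeq promoters were found for 7 members; Slc40a1, Slc39a14 and Hmox1 were not matched.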

Additional observations from a re-analysis of the deposited data

How the results depend on the processing

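Of 39 member differences between classes that passed the test, 23 kept their direction and their side of the threshold under every alternative run. Over those 39 and their 637 alternatives, 577 did so, 58 kept the direction but missed the threshold, and 2 reversed: Slc40a1 in osteoblast-like against chondrocyte-like cells without integration (0.0148) and Tfrc in endothelial-like against fibroblast-like cells at resolution 1.2 (0.0546). The cause was not tested.

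Differences that had not passed the test also turned. Mt3 was at -0.255 in macrophage-like against neutrophil-like cells without replicate 3 of both groups. In HTC-like against chondrocyte-like cells Mt3 was at 0.000139 (resolution 1.2), 0.344 (without replicate 1 of both groups) and 0.0626 (no replicate block), and Slc39a8 at -0.0043 without replicate 1 of both groups. In osteoblast-like against chondrocyte-like cells Mt3 was at -0.694 with few-UMI clusters as chondrocyte-like, and Ftl1 at 0.13 (no integration), 0.0495 (resolution 1.2), 0.0352 (stricter cell filter) and 0.0334 (few-UMI clusters as chondrocyte-like). In endothelial-like against fibroblast-like cells Mt3 was at 0.71 (no integration), 0.202 (without replicate 1 of both groups), 0.0216 (RLE), 0.0554 (no filter on low counts) and 0.188 (no replicate block). Mt2 in osteoclast-like against macrophage-like cells was at 0.0454 (no integration) and 0.0446 (without replicate 1 of both groups). By genotype in cartilage cells Mt2 was at 0.0145 without replicate 3 of both groups, and Fth1 at 0.0223 with few-UMI clusters included and 0.0665 with the replicate block.

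With each library left out in turn, values that changed sign ranged from -0.243 to 0.358 for Mt3 in macrophage-like against neutrophil-like cells. They ranged from -0.164 to 0.0241 for Mt2 in osteoclast-like against macrophage-like cells. They ranged from -0.721 to 0.263 for Mt3, -0.207 to 0.128 for Fth1 and -0.258 to 0.0866 for Slc39a14 in HTC-like against chondrocyte-like cells. They ranged from -0.0885 to 0.272 for Ftl1 in osteoblast-like against chondrocyte-like cells. They ranged from -0.0978 to 0.0911 for Mt3 in endothelial-like against fibroblast-like cells. They ranged from -0.763 to 0.192 for Mt1, -0.754 to 0.398 for Mt2, -0.267 to 0.48 for Fth1 and -0.0464 to 0.657 for Slc39a8 by genotype in cartilage cells.

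The number of genes called between classes fell to 4577 for osteoclast-like against macrophage-like cells with the genotype label in place of the library (no replicate block). For HTC-like against chondrocyte-like cells it was 3019 without replicate 3 of both groups, 1408 without replicate 1 of both groups, 1965 with no replicate block, and 2997 to 5401 with single libraries left out. For osteoblast-like against chondrocyte-like cells it was 2707, 2648 and 2946 in the same 3 settings. By genotype, no filter on low counts called 128 genes in cartilage cells, 26 in HTC-like, 98 in chondrocyte-like and 44 in osteoblast-like cells. It called 61 in osteoclast-like, 93 in fibroblast-like, 112 in endothelial-like and 58 in pericyte-like cells. In macrophage-like, monocyte-like, neutrophil-like and T/NK-like cells it called 7, 50, 23 and 77. Members made up 7 of these calls: Slc40a1 in fibroblast-like cells and Mt3 in osteoblast-like, fibroblast-like, endothelial-like, pericyte-like, monocyte-like and neutrophil-like cells. DESeq2 called 1 in HTC-like, 1 in osteoblast-like, 2 in fibroblast-like, 4 in endothelial-like, 3 in macrophage-like and 1 in neutrophil-like cells. The only member among them was Slc40a1 in fibroblast-like cells. Without replicate 1 of both groups there was 1 call each in cartilage, HTC-like, chondrocyte-like, fibroblast-like, monocyte-like and T/NK-like cells and 7 in pericyte-like cells. With single libraries left out the calls were 0 to 2 in HTC-like, 0 to 1 in macrophage-like and 0 to 2 in pericyte-like cells.

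Replicate 1 of both groups shared the Cell Ranger version and the high share of few-UMI cells. The deviations of its libraries correlated positively in every fit, though by only 0.0558 in macrophage-like cells. Those of replicates 2 and 3 did not correlate positively in every fit, so the numbers were not treated as pairing all libraries. Deviations from the group means correlated at 0.0558 to 0.447 over the fits for replicate 1, -0.197 to 0.06 for replicate 2 and -0.0708 to 0.138 for replicate 3, and not every library correlated best with its own number. A replicate block called 0 genes by genotype in every fit. With 3 libraries a group, few osteoclast-like cells in some libraries (34 to 684) and 46 cartilage cells in knockout-labelled library 2, depth and spread limit what the genotype comparison could detect.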
